A study of Homo sapiens with 6 samples.

Results

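The genes described here are 10 feedback regulators and transcriptional readouts of ERK signalling, taken as a named set from the 60612 gene IDs of each count table. They are the dual specificity phosphatases DUSP4, DUSP5 and DUSP6, the Sprouty genes SPRY1, SPRY2 and SPRY4, the SPRED genes SPRED1 and SPRED2, the ETS factor ETV5, and PHLDA1. RNA was sequenced from KO52, an acute myeloid leukaemia cell line of which every library carries the CEBPA double mutant genotype. The cells held a doxycycline-inducible lentiviral vector that expressed a dominant negative C/EBP peptide (dnCEBP), a dominant negative FOS peptide (dnFOS), or no peptide (EV, the empty vector with GFP), and GFP-positive cells were sorted after induction. Both peptides pair with members of their transcription factor family and keep them from binding DNA, so the groups do not isolate 1 factor of a family. Each group had 2 libraries, 6 in all, from 1 cell line. No label says that the 2 libraries of a group came from separate cultures, so p-values measure only the spread between these libraries, which may be technical. The comparisons ask how the genes that restrain or read out ERK differ in level when C/EBP or AP-1 binding is blocked.

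ERK is the last kinase of the RAS, RAF and MEK relay, by which growth factor receptors such as KIT and FLT3 drive myeloid progenitors to proliferate. Active ERK induces its own inhibitors. DUSP phosphatases remove the activating phosphates from MAP kinases, and Sprouty and SPRED proteins dampen the relay upstream, so that RNA of these genes is often used as a readout of pathway output. AP-1, a dimer of FOS and JUN proteins, is one of the transcription factors that ERK activates.

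Libraries held 9862994 to 27663179 counts, and both dnFOS libraries were the shallowest. A count of 3 equalled 0.108 to 0.304 CPM (counts divided by library size, scaled to 1e6) over the libraries. The mitochondrial ribosomal RNA MT-RNR2 took 21.7% to 22.3% of counts, and the signal recognition particle RNA RN7SL1 took 4.31% to 6.12% in dnFOS and 7.75% to 7.94% in the other groups. All 6 myeloid blast markers (CD33, CD34, KIT, MPO, SPI1 and CEBPA) were detected in every library. Their summed level ran from 808 to 871 CPM in the EV libraries, from 624 to 699 in dnCEBP and from 820 to 846 in dnFOS. CEBPA, at 345 to 479 CPM over the libraries, was the largest part of this sum, and MPO ranged from 53.0 to 239 CPM. The summed T cell markers ran from 115 to 122 CPM in the EV libraries, from 144 to 148 in dnCEBP and from 90.7 to 104 in dnFOS. This sum was nearly all CD3D, since CD3E was at 0 in 4 libraries and CD3G in 2. The epithelial markers EPCAM, KRT8 and KRT18 summed to 67.3 to 87.6 CPM, whereas the B cell marker MS4A1 was at 0 in all 6 libraries. The part of these marker differences in the results was not tested, and in bulk RNA fewer expressing cells and less RNA per cell cannot be told apart.

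Promoter windows, 250 bases before to 50 after each annotated start, were found for 7 of the 10 genes (11 windows) in RefSeq on GRCh38.p14. The 250 bases upstream were searched on both strands for the letters of motifs of the blocked families and of ETS factors, which ERK activates. SPRY1 and SPRY2 are shown because both were lower in dnFOS than in dnCEBP at an adjusted p under 0.05 (edgeR). Of their windows, those shown overlap no annotated exon and hold a match to the letters searched. The SPRY1 window shown, 1 of 2, lies at chr4:123396545-123396794 on the plus strand, with the C/EBP letters TTGCNNAA in capitals. The SPRY2 window shown, 1 of 3, lies at chr13:80341127-80341376 on the minus strand, with the ETS letters CCGGAA in capitals. The other SPRY2 windows hold none of the letters searched.
SPRY1: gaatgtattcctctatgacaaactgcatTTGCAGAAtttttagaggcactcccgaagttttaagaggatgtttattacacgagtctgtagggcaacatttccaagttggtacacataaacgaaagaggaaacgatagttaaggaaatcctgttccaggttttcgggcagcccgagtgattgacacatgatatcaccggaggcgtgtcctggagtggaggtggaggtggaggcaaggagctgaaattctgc
SPRY2: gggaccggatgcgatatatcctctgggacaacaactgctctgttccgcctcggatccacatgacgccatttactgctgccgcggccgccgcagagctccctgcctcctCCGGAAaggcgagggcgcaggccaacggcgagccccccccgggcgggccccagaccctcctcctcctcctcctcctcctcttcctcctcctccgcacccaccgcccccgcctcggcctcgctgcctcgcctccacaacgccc

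The C/EBP letters begin 222 bases before the annotated start of the SPRY1 window shown, and no other window of the 11 holds them. The ETS letters begin 142 bases before the annotated start of the SPRY2 window shown. They stand in 3 of the 11 windows, the others being a second SPRY1 window and that of PHLDA1. The AP-1 letters TGANTCA, the CRE letters TGACGTCA and the composite C/EBP letters TGATGCAA stand in 0 of the 11 windows. Over 35116 RefSeq windows, the same upstream 250 bases hold the C/EBP letters in 9.05%, the ETS letters in 14.5%, the AP-1 letters in 6.57%, the CRE letters in 1.65% and the composite letters in 0.772%. A match describes letters only and is no evidence of binding, and sites farther from the start were not searched.

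All 10 genes passed the filter on low counts and were among the 15395 genes tested. Per length, as reads per kilobase of exon at the library's scaled depth (RPKM, mean over 6 libraries), DUSP6 stood highest at 24.4, followed by SPRY2 at 17.8, SPRED1 at 7.45 and ETV5 at 5.70. SPRY1 was at 3.15, SPRED2 at 3.07, DUSP5 at 1.92 and DUSP4 at 0.721. PHLDA1 at 0.235 and SPRY4 at 0.0778 were the lowest. Ranges over the libraries did not overlap between neighbours in this order, except SPRED1 with ETV5 and SPRY1 with SPRED2. The phosphatase of the cytoplasm, DUSP6, had the most RNA per length, while its nuclear relatives DUSP4 and DUSP5 were at lower levels.

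**Figure D1:**
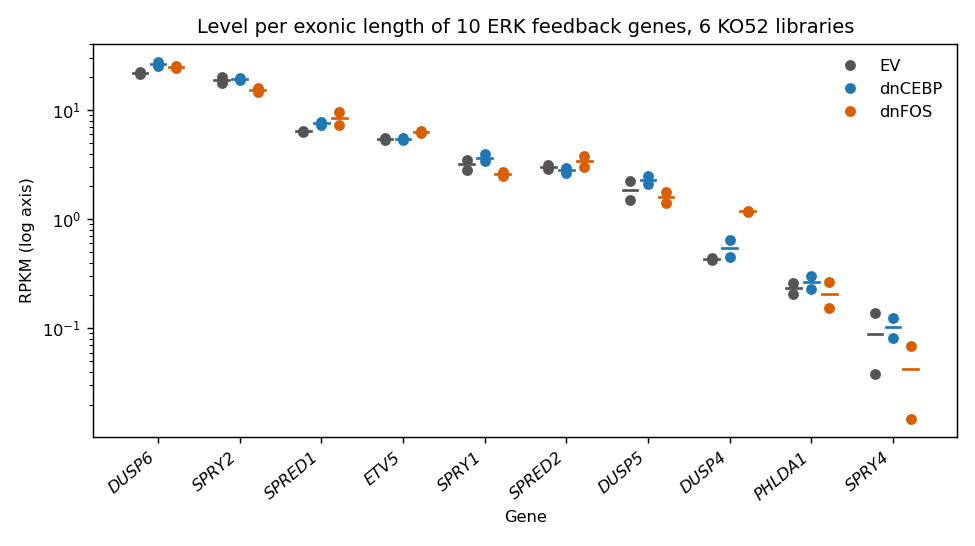
Level of each ERK feedback regulator per exonic length (RPKM, log axis), with 1 point per library, a short line for each group mean and groups shown apart. Genes are ordered by their mean, from DUSP6 at 24.4 RPKM to SPRY4 at 0.0778 RPKM.

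DUSP4 had the largest fold change of the genes that passed the test. This nuclear phosphatase of ERK and other MAP kinases (ENSG00000120875, GRCh38 chromosome 8, 29333064 to 29350668) was at 3.23 and 3.07 CPM in the EV libraries, 4.66 and 3.28 CPM in dnCEBP, with 8.53 and 8.60 CPM in dnFOS. Both dnFOS libraries lay above all 4 others, and the groups did not overlap in any comparison. In counts these levels rest on 67 to 131 reads per library. DUSP4 rose 2.72-fold in dnFOS over EV (log2 1.44 ± 0.24 SE, 95% interval 0.95 to 1.93, edgeR quasi-likelihood test, adjusted p = 0.000115, n = 2 per group). It was also 2.14-fold higher in dnFOS than in dnCEBP (log2 1.09 ± 0.23, adjusted p = 0.0014). Between dnCEBP and EV the difference of 0.35 ± 0.24 on the log2 scale did not pass (adjusted p = 0.611), with an interval from -0.15 to 0.84. It rested on dnCEBP 1, being 0.059 without that library and 0.56 without dnCEBP 2.

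DUSP6, the cytoplasmic phosphatase specific for ERK (ENSG00000139318, chromosome 12, 89347232 to 89353271), was at 104.4 and 99.99 CPM in the EV libraries, 117.2 and 128.2 in dnCEBP, with 116.9 and 111.8 in dnFOS. Every peptide library lay above both EV libraries, but no difference passed the test. The log2 difference from EV was 0.26 ± 0.08 in dnCEBP (interval 0.09 to 0.44, adjusted p = 0.153) and 0.16 ± 0.09 in dnFOS (-0.01 to 0.34, adjusted p = 0.218). With library totals alone in place of TMM scaling, the dnFOS difference passed (0.26, adjusted p = 0.0282). DUSP6 shares 1875 exonic bases with an annotated gene on the opposite strand, and the strand setting of the counting is not given in the sources used here, so reads from the pair may not be separable.

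DUSP5, a nuclear phosphatase specific for ERK (ENSG00000138166, chromosome 10, 110497838 to 110511544), was at 5.83 and 3.94 CPM in the EV libraries, 5.48 and 6.47 in dnCEBP, with 4.69 and 3.67 in dnFOS. The 2 EV libraries spanned more than the distance between their mean and that of either peptide group. The log2 difference from EV was 0.28 ± 0.23 in dnCEBP (adjusted p = 0.680) and -0.21 ± 0.25 in dnFOS (adjusted p = 0.643), and neither passed. DUSP5 was lower in dnFOS than in dnCEBP without overlap, by a log2 difference of -0.49 ± 0.25 that did not pass (adjusted p = 0.203).

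SPRY2, a Sprouty inhibitor of receptor tyrosine kinase signalling (ENSG00000136158, chromosome 13, 80335976 to 80340951), was at 60.5 and 54.1 CPM in the EV libraries, 60.3 and 56.9 in dnCEBP, with 44.7 and 48.1 in dnFOS. Both dnFOS libraries were the lowest of the 6. SPRY2 fell 1.24-fold in dnFOS against EV (log2 -0.31 ± 0.10, interval -0.51 to -0.10, adjusted p = 0.0397) and was 1.26-fold lower than in dnCEBP (log2 -0.34 ± 0.10, adjusted p = 0.0221). The first call was lost with library totals alone (-0.21, adjusted p = 0.163), with DESeq2 (adjusted p = 0.0537), with limma-voom (adjusted p = 0.0589), and without EV 1 (-0.22, adjusted p = 0.378), dnFOS 1 (-0.25, adjusted p = 0.168) or dnFOS 2 (-0.36, adjusted p = 0.0580). The call against dnCEBP was lost with library totals alone (adjusted p = 0.134) and without dnCEBP 1 (adjusted p = 0.158) or dnFOS 1 (adjusted p = 0.115). In dnCEBP against EV SPRY2 differed by 0.03 ± 0.10, with an interval from -0.17 to 0.23 (adjusted p = 0.936).

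SPRY1, its close relative (ENSG00000164056, chromosome 4, 123396795 to 123403760), was at 11.2 and 14.0 CPM in the EV libraries, 15.6 and 13.4 in dnCEBP, with 9.96 and 10.7 in dnFOS. It was again lowest in the dnFOS libraries. SPRY1 was lower in dnFOS than in dnCEBP by 0.49 ± 0.17 on the log2 scale (1.41-fold, adjusted p = 0.0488), close to the threshold. This call was lost with library totals alone (adjusted p = 0.146), DESeq2 (adjusted p = 0.0836), limma-voom (adjusted p = 0.0698) and without dnCEBP 1 (-0.38, adjusted p = 0.272), dnFOS 1 (-0.44, adjusted p = 0.202) or dnFOS 2 (-0.54, adjusted p = 0.105). Against EV the log2 difference was -0.29 ± 0.17 in dnFOS (adjusted p = 0.290) and 0.21 ± 0.16 in dnCEBP (adjusted p = 0.657), and neither passed.

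SPRY4, the third Sprouty gene of the set (ENSG00000187678, chromosome 5, 142310427 to 142326455), had 1 to 22 counts per library, or 0.0967 to 0.916 CPM. In dnFOS 2 the single count lay under the floor of 3. The log2 difference in dnFOS against EV was -0.92 ± 0.84 (interval -2.64 to 0.79, adjusted p = 0.516), so a change was not detectable at this depth. The log2 difference was 0.23 ± 0.68 in dnCEBP against EV (adjusted p = 0.934) and -1.16 ± 0.82 in dnFOS against dnCEBP (adjusted p = 0.393).

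**Figure D2:**
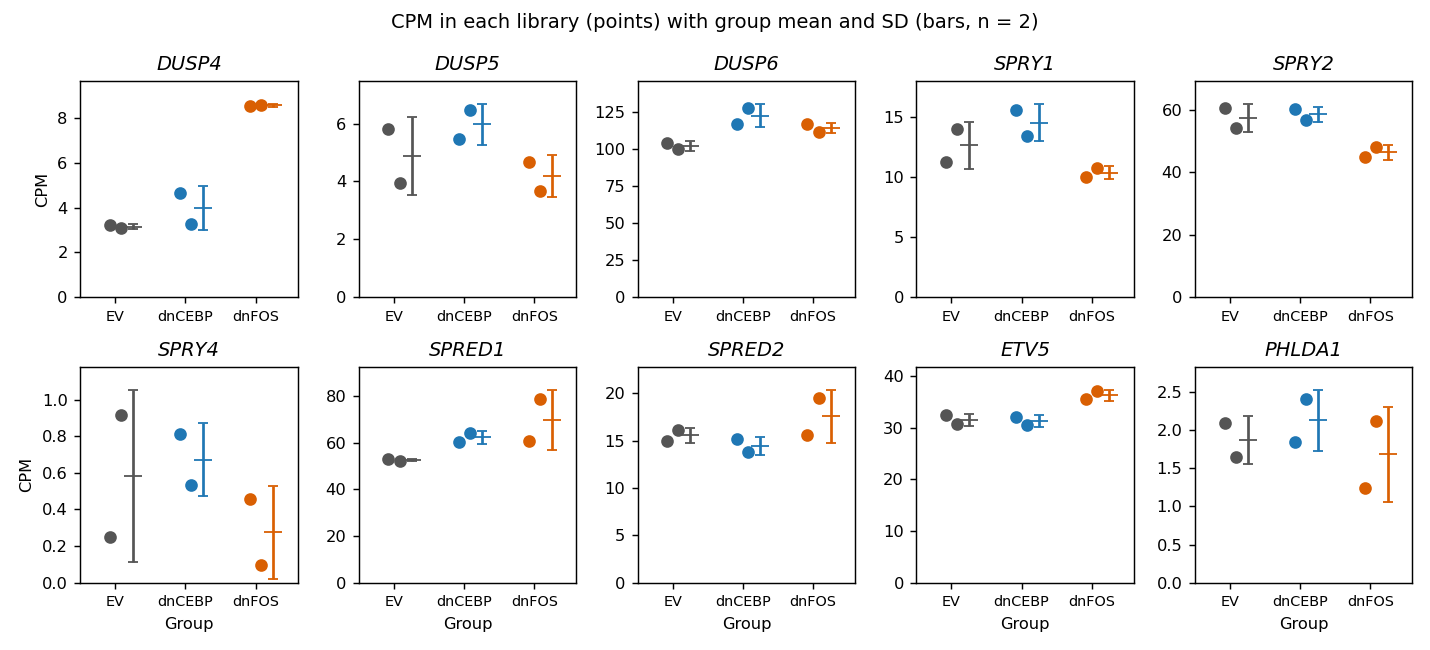
CPM of each of the 10 genes in each library (linear axes starting at 0, 1 panel per gene), with points for libraries and bars for the group mean ± SD (n = 2). DUSP4 in dnFOS (8.53 and 8.60 CPM) lies above its 4 other libraries, and SPRY2 in dnFOS (44.7 and 48.1 CPM) below its 4 others.

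SPRED1, which inhibits RAF activation and recruits the RAS GTPase-activating protein neurofibromin (ENSG00000166068, chromosome 15, 38252326 to 38357249), was at 53.0 and 52.2 CPM in the EV libraries, 60.3 and 64.3 in dnCEBP, with 60.6 and 78.9 in dnFOS. All peptide libraries lay above both EV libraries, and the dnFOS libraries lay far apart. SPRED1 rose 1.32-fold in dnFOS over EV (log2 0.40 ± 0.11, interval 0.18 to 0.62, adjusted p = 0.0095). Without dnFOS 2 the difference was 0.20 (adjusted p = 0.324), without dnFOS 1 it was 0.58 (adjusted p = 8.33e-05), and without EV 2 it was 0.38 (adjusted p = 0.0686). SPRED1 has the lowest GC content of the 10 transcripts (38.9%), and the call was lost when a trend on GC content and length was removed from each library (0.20, adjusted p = 0.120). Over all tested genes, the rank correlation of a library's deviation with GC content was 0.40 and 0.30 in EV. It was 0.25 and -0.23 in dnCEBP and -0.12 and -0.35 in dnFOS. In dnCEBP the log2 difference from EV was 0.24 ± 0.10 (interval 0.03 to 0.45, adjusted p = 0.337), and between the peptides 0.16 ± 0.10 (adjusted p = 0.356). The difference between the peptides depended on the dnFOS library, being 0.342 without dnFOS 1 and -0.038 without dnFOS 2.

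SPRED2, a second gene of this family (ENSG00000198369, chromosome 2, 65310851 to 65432637), was at 15.0 and 16.1 CPM in the EV libraries, 15.1 and 13.8 in dnCEBP, with 15.6 and 19.5 in dnFOS. EV overlapped both peptide groups. The log2 difference from EV was -0.10 ± 0.15 in dnCEBP (adjusted p = 0.852) and 0.16 ± 0.15 in dnFOS (adjusted p = 0.528). Between dnFOS and dnCEBP it was 0.27 ± 0.15 (adjusted p = 0.272), with no overlap of the libraries.

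ETV5, a PEA3-family ETS transcription factor and ERK target gene (ENSG00000244405, chromosome 3, 186046308 to 186110318, where 164 exonic bases are shared with DGKG), was at 32.4 and 30.7 CPM in the EV libraries, 32.2 and 30.6 in dnCEBP, with 35.5 and 37.0 in dnFOS. The dnFOS libraries were the 2 highest. The log2 difference in dnFOS was 0.20 ± 0.11 from EV (adjusted p = 0.263) and 0.21 ± 0.11 from dnCEBP (adjusted p = 0.244), and neither passed, although the latter did with library totals alone (0.33, adjusted p = 0.0433). In dnCEBP against EV it was -0.01 ± 0.11 (interval -0.24 to 0.22, adjusted p = 0.987).

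PHLDA1, a pleckstrin homology-like domain protein whose RNA is used as an ERK output marker (ENSG00000139289, chromosome 12, 76025447 to 76033932), was at 2.10 and 1.65 CPM in the EV libraries, 1.85 and 2.41 in dnCEBP, with 1.24 and 2.13 in dnFOS. The groups overlapped throughout, and PHLDA1 also shares exonic bases with annotated genes on the opposite strand. The log2 differences were 0.17 ± 0.35 in dnCEBP (adjusted p = 0.898) and -0.20 ± 0.39 in dnFOS (adjusted p = 0.788) against EV, and -0.37 ± 0.39 between the peptides (adjusted p = 0.586).

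Counted over the set, dnFOS against EV gave 3 genes of 10 (30%) past an adjusted p of 0.05, which 15% of all genes passed. DUSP4 and SPRED1 were higher (background 7.24%) and SPRY2 was lower (background 7.76%), so the set did not move one way, with 5 positive and 5 negative differences and a median log2 difference of -0.02 (all genes 0.00). In 4 genes both dnFOS libraries lay above both EV libraries and in 2 they lay below, against 28.3% and 28.4% of all genes (56.7% in either direction). In dnCEBP against EV 0 of 10 genes were called by edgeR (background 1.07%), also 0 by DESeq2 and by limma-voom, and 2 had an unadjusted p under 0.05. There 8 differences were positive and 2 negative, the median was 0.22 (all genes -0.00), and both libraries lay above EV in 3 genes (background 21.9%, and 42.8% in either direction). Between dnFOS and dnCEBP 3 of 10 genes were called (background 14.7%), with DUSP4 higher (background 6.83%) and SPRY1 and SPRY2 lower (background 7.84%), and the median was -0.22 (all genes 0.02). There dnFOS lay above dnCEBP in 3 genes (background 28.6%) and below in 5 (background 25.9%), where 54.5% of all genes did not overlap. These comparisons share libraries and are not independent of each other. With 10 genes, 1 call moves the share by 10 percentage points, so the counts describe the set and were not tested.

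**Figure D3:**
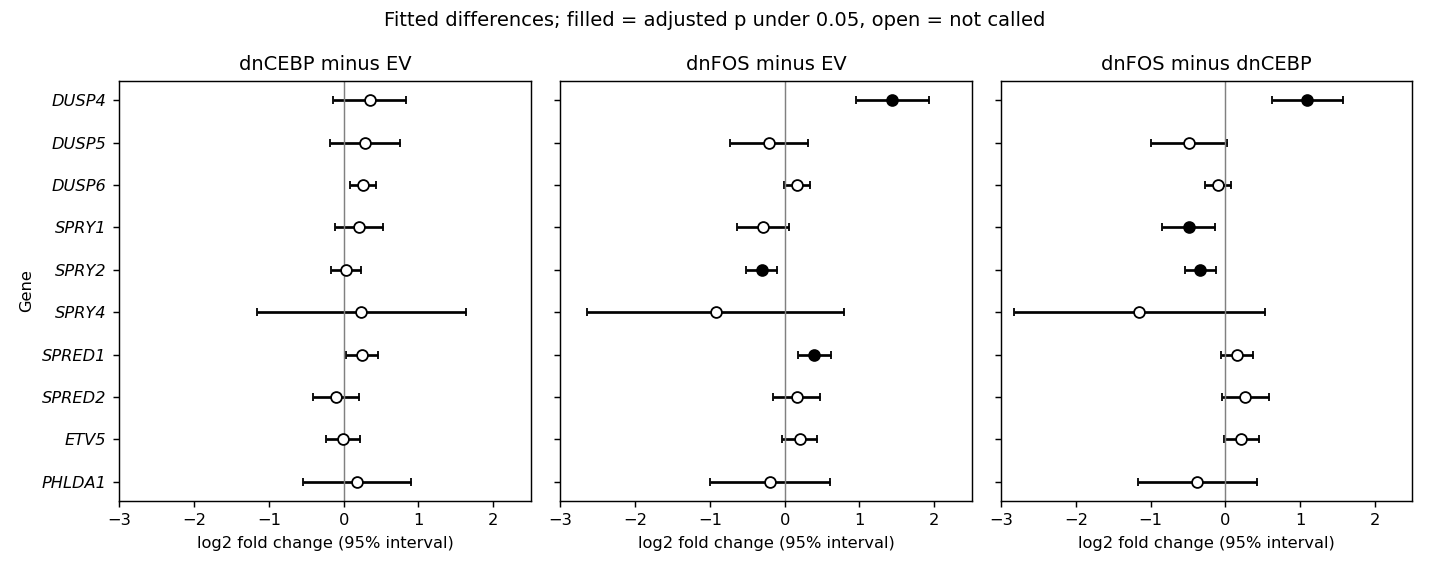
Log2 fold change of each gene in the 3 comparisons, with 95% intervals from the edgeR fit and filled points where the adjusted p was under 0.05. DUSP4 in dnFOS (1.44 over EV) is the largest, and no gene is called in dnCEBP against EV.

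The rest of the pathway was read from 5 lists of 63 genes, of which 56 were tested. In dnFOS against EV 12 of the 56 were called (21.4%, background 15%), 4 higher and 8 lower, with a median log2 difference of -0.03. In dnCEBP against EV 1 was called (1.79%, background 1.07%). Among the other MAPK phosphatases and Sprouty or SPRED genes, 0 of 6 were called in dnFOS by edgeR, DESeq2 or limma-voom, and 1 had an unadjusted p under 0.05.

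Of 11 other ERK-responsive genes, 3 fell in dnFOS (27.3%, background 7.76% lower) and none passed as higher. LIF, an interleukin-6 family cytokine, was at 18.5 and 20.9 CPM in the EV libraries, 24.8 and 25.3 in dnCEBP, with 11.4 and 11.1 in dnFOS, lowest in dnFOS without overlap (log2 -0.80 ± 0.15 against EV, adjusted p = 0.000368). EGR1, an immediate early zinc finger factor, was at 17.6 and 16.9 CPM in EV and 8.33 and 10.7 in dnFOS (log2 -0.87 ± 0.17, adjusted p = 0.000879). In dnCEBP EGR1 was at 15.9 and 12.4 CPM, also below both EV libraries, but did not pass (edgeR, log2 -0.28 ± 0.16, adjusted p = 0.517). Its relative EGR2 was at 2.48 and 2.98 CPM in EV and 1.24 and 1.45 in dnFOS (log2 -1.03 ± 0.35, adjusted p = 0.0462), a call lost under 6 settings (adjusted p = 0.0591 to 0.116 with DESeq2, limma-voom, library totals alone, no filter, only the 4 libraries compared, or the GC and length trend removed) and without any 1 of the 4 EV and dnFOS libraries (adjusted p = 0.0772 to 0.213). The sole call in dnCEBP was MYC, the growth-promoting transcription factor, at 233 and 215 CPM in the EV libraries, 149 and 130 in dnCEBP, with 216 and 202 in dnFOS (dnCEBP against EV, log2 -0.68 ± 0.09, adjusted p = 4.8e-05).

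In the cascade itself 4 of 13 tested genes were called in dnFOS (30.8%, background 15%), 3 of them lower (background 7.76%). These were the kinase ARAF (log2 -0.48 ± 0.12, adjusted p = 0.00654), the scaffold KSR1 (-0.46 ± 0.13, adjusted p = 0.0134) and MAPK3, which encodes ERK1 (-0.48 ± 0.15, adjusted p = 0.0290). Of 16 RAS adaptors and regulators 3 were called (18.8%), a share near the background of 15%. The adaptor GAB2 fell from 36.8 and 35.5 CPM in EV to 20.4 and 17.8 in dnFOS (log2 -0.91 ± 0.12, adjusted p = 9e-06). Of the RAS GTPase-activating genes, RASA3 was lower (-0.34 ± 0.09, adjusted p = 0.0066) and RASA2 higher (0.44 ± 0.10, adjusted p = 0.0042). Of 10 ERK effectors 2 were called (20%, background 15%), both higher (background 7.24%), namely the kinase RPS6KA3 (0.38 ± 0.09, adjusted p = 0.00598) and the ETS factor ELK4 (0.37 ± 0.10, adjusted p = 0.0135). With the GC and length trend removed, the higher calls were lost in RASA2 (0.20, adjusted p = 0.153), ELK4 (0.15, adjusted p = 0.243) and RPS6KA3 (0.20, adjusted p = 0.0802), and so was the lower call of MAPK3 (-0.27, adjusted p = 0.224). MAPK3 and KSR1 (adjusted p = 0.0596) also lost their calls with library totals alone. With 1 library left out, calls were lost in KSR1 (without EV 2 or dnFOS 2, adjusted p = 0.154 and 0.113), MAPK3 (without EV 1, EV 2 or dnFOS 1, adjusted p = 0.105, 0.0935 and 0.271), RASA2 (without EV 2, adjusted p = 0.108) and RASA3 (without EV 1 or dnFOS 2, adjusted p = 0.0882 and 0.0788). The same held for RPS6KA3 (without EV 2 or dnFOS 2, adjusted p = 0.116 and 0.0692) and ELK4 (without EV 1 or dnFOS 2, adjusted p = 0.210 and 0.185), whereas ARAF and GAB2, with LIF and EGR1 above, kept their calls against EV in every alternative run. GC content was 36.7% in RASA2, 38.5% in ELK4 and 40.0% in RPS6KA3.

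The gene whose profile over the 6 libraries was most like each of the 10 was found by the root mean square (RMS) difference of centred log2 CPM, among up to 8327 genes of at least 10 CPM. For DUSP4 it was LRRC8C (0.196, where the RMS of DUSP4 about its own mean was 0.625), for SPRY2 it was MRGBP (0.0240 against 0.162), for SPRED1 it was CAAP1 (0.0247 against 0.198) and for DUSP6 it was TMEM156 (0.0186 against 0.117). DUSP5 was nearest NAB2 (0.0971), SPRY1 nearest COMMD7 (0.0707), ETV5 nearest TNRC6B (0.0195), SPRED2 nearest AC006504.5 (0.0297), PHLDA1 nearest ISY1 (0.101) and SPRY4 nearest TNFAIP3 (0.481). Within the set, a nearest member was sought only among those of at least 10 CPM. It was ETV5 for SPRED2 (0.103), SPRED1 (0.150) and DUSP6 (0.154), and SPRY1 and SPRY2 were nearest each other (0.160). SPRED2 and ETV5 differed about as much as ETV5 (0.103) varied about its own mean. SPRY1 and SPRY2 differed about as much as SPRY2 did (0.162). These likenesses are descriptions over 6 libraries that share depth and base composition.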

How the data were processed

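Per the labels, ribosomal RNA was depleted, libraries were amplified over 15 PCR cycles, and reads were paired-end at 75 bases. The authors deposited 1 table of unnormalized gene counts for each library. The submitters' processing notes name Trimmomatic, HISAT2, featureCounts, Subread and hg38. Versions, annotation release, strand setting and treatment of reads that match several genes are not given in the sources used here. Reads of overlapping or near-identical genes may be dropped or shared.

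Of 60612 IDs, 58394 matched GENCODE release 29 (GRCh38), which gave symbols, coordinates and exonic lengths. The counts went into edgeR 4.0.16 (R 4.3.3) with filterByExpr at a minimum count of 10, TMM factors of 0.956 to 1.05, and a robust quasi-likelihood fit over all 6 libraries with a mean per group (3 residual degrees of freedom, common biological coefficient of variation 0.0961). This tested 15395 of 27870 genes with a count. Contrasts were two-sided, adjusted by Benjamini-Hochberg over all genes tested, and called under 0.05. CPM use scaled library sizes, RPKM the exonic length, and floors the total count. Each SE was the absolute log2 fold change divided by the square root of the F statistic of its test. The 95% intervals are confidence intervals of the log2 fold change, from this SE and a t quantile. Replicates of a group differed beyond sampling noise (chi-square per degree of freedom 8.05 to 14.4). The scripts were tested on simulated data.

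The 10 genes and the pathway lists were chosen with earlier results of these data known. All 10 are named, with the called genes of the lists in comparisons with EV and the most alike genes, except 1 gene of the lists and 1 marker, which are not reported here. Each result was recomputed with median-of-ratios factors, library totals alone, no filter, a mean of at least 1 CPM, the 4 libraries compared, DESeq2 1.42.0, limma-voom (limma 3.58.1), the replicate number as a block, a GC and length trend removed (loess span 0.5), and each library left out.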

Additional observations from a re-analysis of the deposited data

How the results depend on the processing

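DUSP4 stayed called in dnFOS against EV (log2 1.43 to 1.54 over the alternatives, 1.39 to 1.48 without each library) and against dnCEBP. Of 387 values of the 10 genes under alternatives, 350 kept direction and side of the threshold, 18 lost a call, 4 gained one and 15 changed sign, all 15 uncalled. The cause was not tested. In dnCEBP against EV these were ETV5 without the filter (0.0025) and with the GC and length trend removed (0.0034), and, over the libraries left out in turn, ETV5 (-0.052 to 0.030), SPRY2 (-0.051 to 0.116), SPRY4 (-0.42 to 1.41) and PHLDA1 (-0.020 to 0.362). In dnFOS against EV they were DUSP5 (-0.47 to 0.104), SPRY4 (-2.51 to 0.247) and PHLDA1 (-0.60 to 0.180). In dnFOS against dnCEBP they were DUSP6 with library totals alone (0.022), and, leaving out libraries, SPRED1 (-0.038 to 0.342) and PHLDA1 (-0.77 to 0.0056). SPRY4 has no value at a mean of at least 1 CPM.

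Genes called in dnCEBP against EV numbered 255 without the filter, 297 with 4 libraries, 294 with the GC and length trend removed, and 33 to 257 without 1 library. Without 1 library 972 to 2330 were called in dnFOS against EV and 1182 to 2185 against dnCEBP, and of the 10 genes 0, 1 to 2 and 1 to 3 in the 3 comparisons. Library totals alone moved the median log2 change of all genes from 0.00 to 0.10 in dnFOS against EV, and the share lower among called genes from 51.7% to 26.2% (62.2% with the GC and length trend removed). Against dnCEBP that share moved from 53.4% to 25.4%. Of the pathway genes, 1 to 2, 6 to 12 and 4 to 9 were called without 1 library, 2 in dnCEBP against EV with the GC and length trend removed, and 6 (DESeq2) or 7 (limma-voom) in dnFOS against dnCEBP. By list, the GC and length trend left 2 ERK-responsive genes in dnCEBP, and 1 phosphatase and 2 cascade genes in dnFOS. RAS adaptors were 5 in dnFOS with library totals alone, and 0 to 1 in dnCEBP and 2 to 4 in dnFOS without 1 library. Cascade genes were then 1 to 4, effectors 0 to 2 and ERK-responsive genes 2 in dnFOS.

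Over all tested genes, differences between replicates 1 and 2 were only weakly correlated between groups (0.0174, 0.0281 and 0.0879). The rank correlation with GC content was higher in replicate 1 than in replicate 2 of each group. An effect shared by libraries of the same replicate number was not tested. With the replicate block 488 genes were called in dnCEBP against EV (52.5% lower, against 41.8%), 3172 in dnFOS against EV and 3013 between the peptides. Without the block these numbers were 165, 2309 and 2259. Of the 10 genes the block called 1 in dnCEBP, DUSP6 (adjusted p = 0.0285), and of the lists 1 phosphatase and 7 cascade genes in dnFOS. SPRY4, at 1 to 22 counts per library, is limited by depth.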

Other observations

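Read directly between the peptides, 6 of 11 other ERK-responsive genes passed the test between dnFOS and dnCEBP (edgeR, background 14.7% of all genes), 2 higher and 4 lower. LIF (lower in dnFOS) and MYC (higher) kept that call in every alternative run. EGR1, EGR2, ETV1 and EGR3 each lost it in at least 1, so the count rests on the setting. ETV1, a relative of ETV5, was at 0.592 and 0.772 CPM in dnCEBP and 1.89 and 2.32 in dnFOS (log2 1.62 ± 0.49, adjusted p = 0.0224), and lost the call without dnCEBP 1 (adjusted p = 0.152), dnCEBP 2 (adjusted p = 0.0636) or dnFOS 2 (adjusted p = 0.134). EGR1 lost it with library totals alone (adjusted p = 0.0693) and without dnCEBP 1 (adjusted p = 0.244) or dnFOS 1 (adjusted p = 0.226). EGR2 lost it with DESeq2 (adjusted p = 0.0564), with limma-voom (adjusted p = 0.0702) and without dnCEBP 2 (adjusted p = 0.131), dnFOS 1 (adjusted p = 0.140) or dnFOS 2 (adjusted p = 0.0689). EGR3 (log2 -1.32 ± 0.43, adjusted p = 0.0344) lost it with DESeq2, limma-voom and library totals alone, and was -0.91 without dnCEBP 1 (adjusted p = 0.352), -1.03 without dnFOS 1 (adjusted p = 0.230) and also lost it without dnFOS 2 (adjusted p = 0.0582). Over all lists edgeR called 12 genes in this comparison, DESeq2 6 and limma-voom 7. Of 6 other MAPK phosphatases and Sprouty or SPRED genes edgeR called 2 (33.3%), 1 higher and 1 lower, and both calls were lost with DESeq2. The share was 7.69% in the cascade, 12.5% in the RAS adaptors and regulators and 10% in the ERK effectors. ETV1 and EGR3 were named after their values were seen.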
